A study of Saccharomyces cerevisiae with 7 samples.

Results

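Ribonucleotide reductase and the enzymes that supply deoxynucleotides (dNTPs) were followed at the transcript level through meiosis in budding yeast, Saccharomyces cerevisiae. The 9 genes were taken by their systematic names, and all 9 had a value at every time, out of 5585 genes with values at all times and 6141 rows in all. They are RNR1 (YER070W), RNR3 (YIL066C), RNR2 (YJL026W), RNR4 (YGR180C), DUN1 (YDL101C), SML1 (YML058W), CDC21 (YOR074C), CDC8 (YJR057W) and DUT1 (YBR252W). They were chosen by function and not by their values, though with earlier results of these data known. All samples carried spo11-Y135F, an allele in which Spo11 lacks its catalytic tyrosine and so cannot cut DNA to start meiotic recombination. Samples were taken at 1, 2, 3, 4, 5, 6 and 8 h of meiosis, with 1 array at each time, and were set against 0 h of the same mutant. Each value is the log2 ratio of a transcript to its own level at 0 h, measured through a common mixture of mRNA from all times. No strain without the mutation was analysed here, and the sources used here do not give strain background, ploidy or medium.

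Ribonucleotide reductase converts ribonucleotides to deoxyribonucleotides, the step that limits dNTP supply for DNA synthesis. Its large subunit, mainly Rnr1, holds the catalytic and regulatory sites. The small subunit is a heterodimer of Rnr2 and Rnr4, of which Rnr2 carries the iron and tyrosyl radical cofactor. Rnr3 is an alternative large subunit known from mitotic cells as strongly induced by DNA damage. Sml1 binds Rnr1 and inhibits it, and the checkpoint kinase Dun1 marks Sml1 for removal when S phase starts or DNA is damaged. In the thymidine branch, Dut1 hydrolyses dUTP to dUMP, Cdc21 (thymidylate synthase) methylates dUMP to dTMP, and Cdc8 (thymidylate kinase) phosphorylates dTMP. In budding yeast RNR1 and CDC21 are textbook targets of MBF, the transcription factor of the G1 to S transition, and meiotic cells pass through a premeiotic S phase before recombination.

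CDC21 and DUT1 were above 0 h at all 7 times, CDC21 up to 2.58-fold at 3 h and DUT1 up to 2.82-fold at 2 h. RNR2 and RNR4 were below 0 h from 1 to 6 h, RNR2 down to 3.02-fold below at 6 h, and at 8 h RNR2 was at -0.50 and RNR4 at its 0 h level. RNR1 and RNR3 stayed within 2-fold of 0 h in the deposited values. SML1 was 2.88-fold below 0 h at 8 h, which rests on that array alone. None of the 9 genes passed a test of change over time in limma after adjustment over all genes. With a line in time 2.06% of all genes passed, and with a curve 5.68%. Without the 8 h array CDC8 passed both, when 15.5% of all genes passed with a line and 29.9% with a curve.

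The columns differed in spread. The standard deviation over all genes was smallest for 2 h (0.84) and largest for 6 h (1.49), and column medians ran from -0.15 (6 h) to 0.03 (1 h). The 6 h column also has other empty rows than the rest. Fixed markers of meiosis were high on these arrays. IME1, the master regulator of entry, was highest at 3 h with 3.50, and NDT80, the transcription factor of the middle programme, at 6 h with 7.47. Of the 6 markers, 5 to 6 were at least 2-fold above 0 h at each time. In such bulk samples, fewer cells of a kind and less RNA per cell cannot be told apart.

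**Figure D1:**
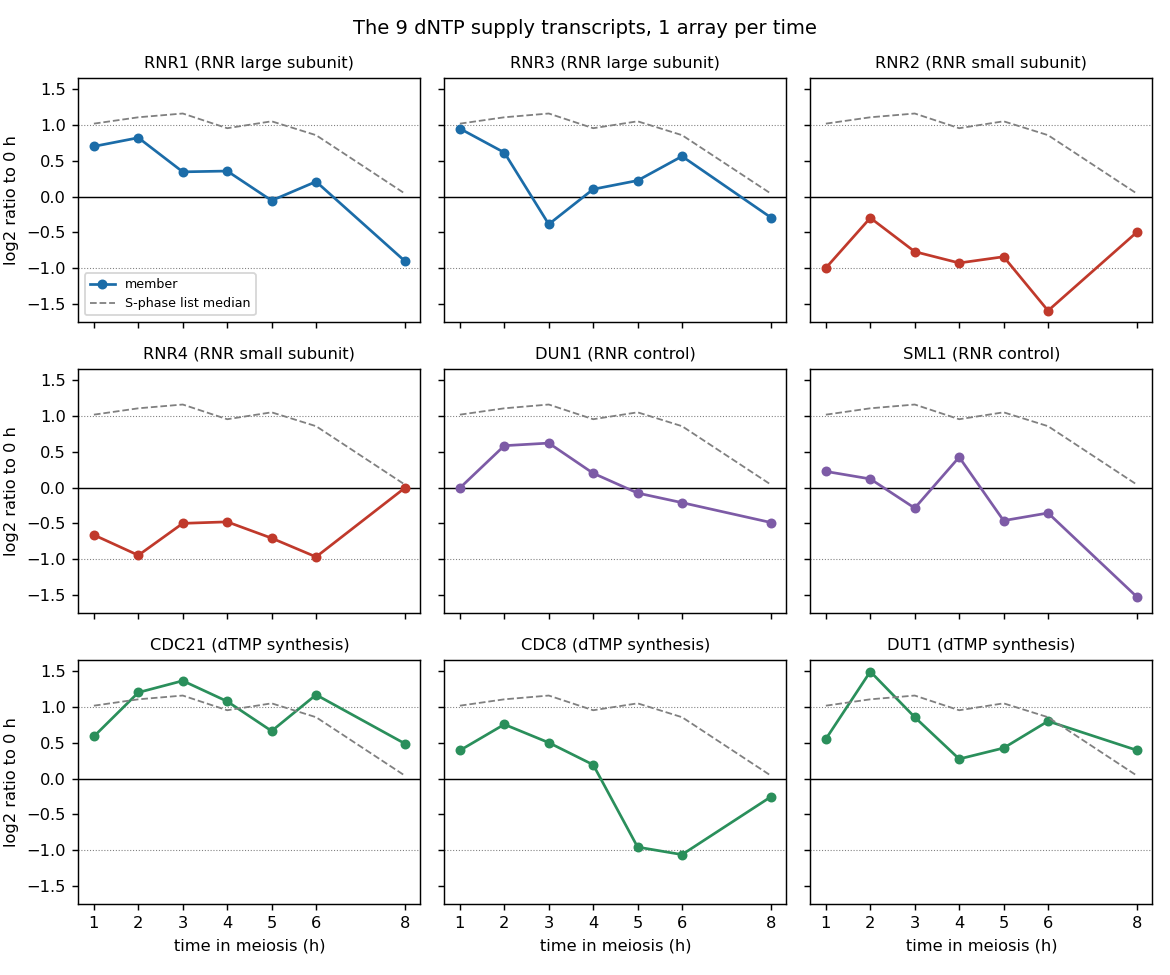
Log2 ratio to 0 h (vertical axis) against hours in meiosis (horizontal axis) for the 9 genes, 1 panel each, with 1 array per time and so no error bars. The dashed line is the median of 14 S-phase genes and the dotted lines mark 2-fold above and below 0 h. RNR2 and RNR4 lie below 0 from 1 to 6 h, CDC21 and DUT1 above 0 at every time, and SML1 is lowest at 8 h.

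The large subunit genes were above 0 h at the start of the course and below it at 8 h. RNR1 was at 0.70, 0.82, 0.35, 0.36, -0.06, 0.21 and -0.90 at 1, 2, 3, 4, 5, 6 and 8 h. Its highest value, 1.77-fold above 0 h, was that of 2 h, and its lowest, 1.87-fold below, that of 8 h. The values at 1 and 2 h differed by 0.12, less than the scatter of 0.24 that RNR1 showed around a fitted curve, whereas those at 8 and 6 h differed by -1.11. RNR3 was at 0.95, 0.61, -0.39, 0.10, 0.22, 0.56 and -0.29 at the same times. It was thus highest at 1 h, with 1.93-fold, and lowest at 3 h. The step of RNR3 from 2 to 3 h, -1.002, was the only one of the 9 genes that reached 2-fold downwards in that hour, against 6.59% of all genes. It only just did so, and fell short with columns centred on their median (0.61 at 2 h and -0.37 at 3 h). With columns quantile normalized the step of RNR3 passed 2-fold (0.72 at 2 h and -0.47 at 3 h). RNR1 differed by -0.48 over the same hour. RNR3 at 6 h rests on that array alone. RNR1 and RNR3 are paralogs, and the sources used here do not say whether the array probes separate them.

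The small subunit genes lay below 0 h from 1 to 6 h. RNR2 was at -0.997, -0.30, -0.77, -0.93, -0.84, -1.60 and -0.50 at 1, 2, 3, 4, 5, 6 and 8 h. Only the value at 6 h was 2-fold below, and it rests on that array alone, while that at 1 h came just short of it and passed it with columns quantile normalized (-1.15) or centred on their median (-1.03). RNR4 was at -0.66, -0.95, -0.50, -0.48, -0.71, -0.97 and -0.00. RNR4 therefore came back to its 0 h level at 8 h, the time at which RNR1 was lowest. With columns centred on their median or quantile normalized, RNR4 lay just above 0 at 8 h, with 0.05 and 0.01, and below 0 at the other 6 times. A value below 0 at all 7 times was found for 14.4% of all genes, and for 2 of the 9 genes here. The values of a gene at different times were divided by its measurement at 0 h, whose error is not known, and it is not known whether the 6 h column shares that measurement with the others.

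Because both subunits enter one enzyme, their ratios to 0 h were set side by side. In time order, RNR1 minus RNR2 was 1.70, 1.12, 1.12, 1.28, 0.79 and 1.80 up to 6 h, and -0.41 at 8 h. RNR1 minus RNR4 was 1.36 at 1 h, highest at 2 h with 1.77, between 0.65 and 1.18 from 3 to 6 h, and -0.90 at 8 h. Relative to 0 h, RNR1 was thus ahead of both small subunit transcripts at 6 of 7 times, by up to 3.49-fold over RNR2 at 6 h and 3.41-fold over RNR4 at 2 h. At 8 h the order was turned round. RNR3 minus RNR2, in contrast, was above 0 at all 7 times, between 0.20 at 8 h and 2.16 at 6 h. RNR3 minus RNR4 was above 0 from 1 to 6 h, between 0.11 at 3 h and 1.61 at 1 h, and at -0.29 at 8 h. These are differences of changes and say nothing on which transcript is more abundant. Within the pairs, RNR1 minus RNR3 lay between -0.61 at 8 h and 0.73 at 3 h, and RNR2 minus RNR4 between -0.63 at 6 h and 0.65 at 2 h. At 8 h the gaps within the pairs, -0.61 and -0.49, were wider than that between RNR1 and RNR2 (-0.41). They were narrower than that between RNR1 and RNR4 (-0.90). The turn between RNR1 and the small subunit genes rests on the 8 h array alone, and each difference has n = 1.

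**Figure D2:**
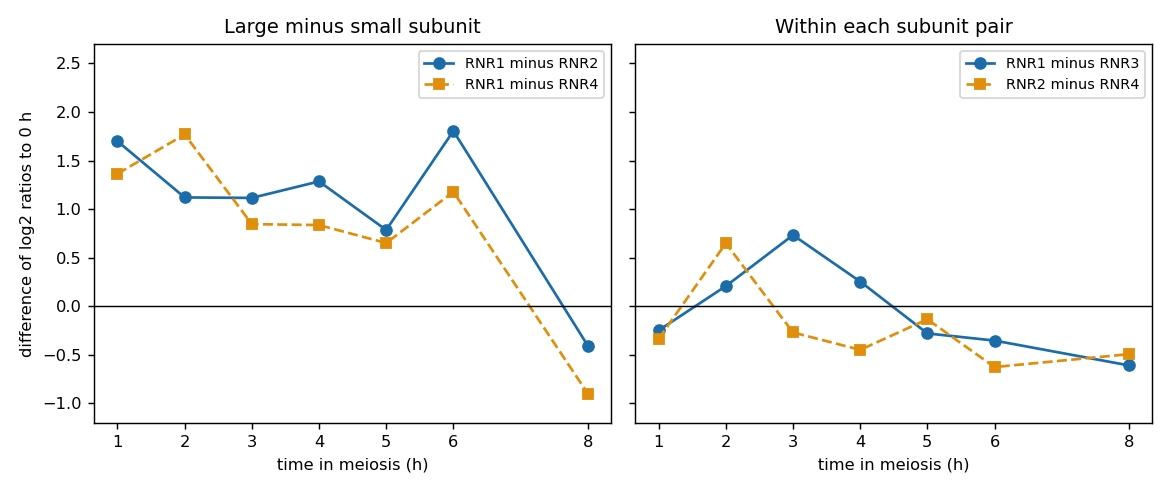
Differences of log2 ratios to 0 h (vertical axis) against hours in meiosis (horizontal axis), 1 array per time. Left, RNR1 minus RNR2 and RNR1 minus RNR4 are above 0 from 1 to 6 h and at -0.41 and -0.90 at 8 h. Right, the differences within the large subunit pair (RNR1 minus RNR3) and the small subunit pair (RNR2 minus RNR4) stay between -0.63 and 0.73.

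Of the genes that control the enzyme, DUN1 was highest at 2 and 3 h and below 0 h from 5 h on. It was at -0.01, 0.59, 0.62, 0.20, -0.08, -0.21 and -0.49 at 1, 2, 3, 4, 5, 6 and 8 h. SML1 was at 0.23, 0.12, -0.29, 0.43, -0.46, -0.36 and -1.53. The SML1 transcript, whose protein inhibits Rnr1, thus stayed within 1.5-fold of 0 h up to 6 h and was far lower at 8 h, where only 4.19% of all genes had a lower value. SML1 at 8 h minus SML1 at 6 h was -1.17, and this fall rests on the 8 h array alone. DUN1 minus SML1 was 0.91 at 3 h and 1.04 at 8 h, and between -0.23 and 0.46 at the other times.

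The thymidine branch did not move as one. CDC21 was at 0.59, 1.20, 1.37, 1.08, 0.66, 1.17 and 0.49 at 1, 2, 3, 4, 5, 6 and 8 h. It was at least 2-fold above 0 h at 2, 3, 4 and 6 h, and over 94% of all genes had a lower value at 2 and 3 h (94.3% and 95.8%). Its value at 6 h stands above those at 5 and 8 h and was under 2-fold after quantile normalization (0.84). DUT1 was at 0.55, 1.50, 0.86, 0.27, 0.43, 0.80 and 0.40, with its highest value at 2 h, where 96.4% of all genes lay lower. CDC8 was at 0.39, 0.76, 0.50, 0.19, -0.96, -1.06 and -0.25. CDC8 was thus above 0 h up to 4 h, like the other 2 genes, and below 0 h from 5 h on, unlike them. Its step from 4 to 5 h was -1.15, the only one of the 9 genes that reached 2-fold downwards in that hour, against 4.91% of all genes. CDC21 minus CDC8 was, in time order, 0.20, 0.45, 0.86, 0.89, 1.62, 2.23 and 0.74. At 6 h this gap was 4.70-fold, and it was 3.08-fold at 5 h, so it does not rest on the 6 h array alone. A value above 0 at all 7 times, as for CDC21 and DUT1, was found for 11.7% of all genes.

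Counts past a fixed fold were small. At least 2-fold above 0 h were CDC21 and DUT1 at 2 h (8.68% of all genes), CDC21 alone at 3 h (7.68%), 4 h (11.5%) and 6 h (18.9%), and no member at 1 h (10.8%), 5 h (16.3%) and 8 h (12.3%). At any time these were 2 of 9 members, against 34.9% of all genes. At least 2-fold below 0 h were RNR2 and CDC8 at 6 h (19.5% of all genes) and SML1 at 8 h (10.8%), which makes 3 of 9 members at any time, against 35.2%. At 1, 2, 3, 4 and 5 h no member was, when 9.44%, 9.35%, 8.43%, 10.7% and 17.4% of all genes were. RNR1, RNR3, RNR4 and DUN1 stayed within 2-fold of 0 h at every time, as did 34.3% of all genes. After quantile normalization RNR1 (1.01 at 2 h), RNR3 (1.05 at 1 h) and RNR4 (-1.11 at 2 h) passed 2-fold, which left DUN1 of these 4, and CDC8 at 6 h no longer did (-0.76, and -0.91 with columns centred). The range between a gene's highest and lowest value was widest for SML1 (3.87-fold) and narrowest for CDC21 (1.84-fold). Among all genes, 70.0% had a narrower range than SML1 and 11.6% a narrower one than CDC21. For 6 of the 9 genes the range was narrower than the median range of all genes. Their median was 0.39, 0.61, 0.35, 0.20, -0.08, -0.21 and -0.29 at 1, 2, 3, 4, 5, 6 and 8 h, and that of all genes 0.03, 0.00, -0.02, -0.04, -0.07, -0.15 and -0.05.

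Most of the highest values came early and most of the lowest late. RNR1, RNR2, CDC8 and DUT1 had their highest value at 2 h, as did 10.0% of all genes. Together with RNR3 (1 h), DUN1 and CDC21 (3 h), 7 of the 9 peaked at 1, 2 or 3 h, against 46.8% of all genes. SML1 was highest at 4 h and RNR4 at 8 h. The lowest value fell at 8 h for RNR1, DUN1, SML1 and CDC21 (18.1% of all genes) and at 6 h for RNR2, RNR4 and CDC8 (25.6%), so for 7 of 9 at either of these times (43.8%). For RNR4 this holds for the deposited values only, where 2 h (-0.95) was almost as low as 6 h (-0.97). With columns quantile normalized or centred on their median, RNR4 was lowest at 2 h (-1.11 and -0.95) and so left this count. After the values were seen, the 8 h array was set against the 2 h array. At 8 h, 5 of the 9 genes were at least 2-fold lower than at 2 h, against 14.2% of all genes: RNR1 by -1.72, SML1 by -1.65, DUT1 by -1.10, DUN1 by -1.07 and CDC8 by -1.01. RNR4 went the other way with 0.94. The count depends on both arrays. It was 2 with 6 h or with 5 h in place of 8 h, and 3 with 1 h or with 3 h in place of 2 h. It was 7 after quantile normalization and 4 with columns centred on their median. The share of all genes was not computed for these alternatives. These counts have no test, since each time has 1 array.

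Change over the whole course was tested by a line in hours fitted to all 5585 genes with limma, with p-values adjusted by the Benjamini-Hochberg method over all genes. Of the 9 genes, 0 passed at an adjusted p of 0.05, against 2.06% of all genes (1.34% rising and 0.716% falling), and 3 had an unadjusted p under 0.05, against 23.0%. These 3 were RNR1, SML1 and CDC8. The slope of RNR1 was -0.22 ± 0.07 (SE) log2 per hour, with an adjusted p of 0.0934 in limma. That of SML1 was -0.22 ± 0.08 (SE), with an adjusted p of 0.126 in limma, and that of CDC8 -0.21 ± 0.09 (SE), with an adjusted p of 0.198 in limma. The other 6 slopes lay between -0.12 for DUN1 and 0.07 for RNR4, with adjusted p-values between 0.309 and 0.892. A negative slope was found for 8 of the 9 genes and for 55.7% of all genes. Without the 8 h array CDC8 passed, with a slope of -0.36 log2 per hour and an adjusted p of 0.0403 in limma, when 15.5% of all genes did. Over the alternatives tried, the adjusted p of CDC8 lay between 0.0403 and 0.432, and that of RNR1 between 0.0536 and 0.267.

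**Figure D3:**
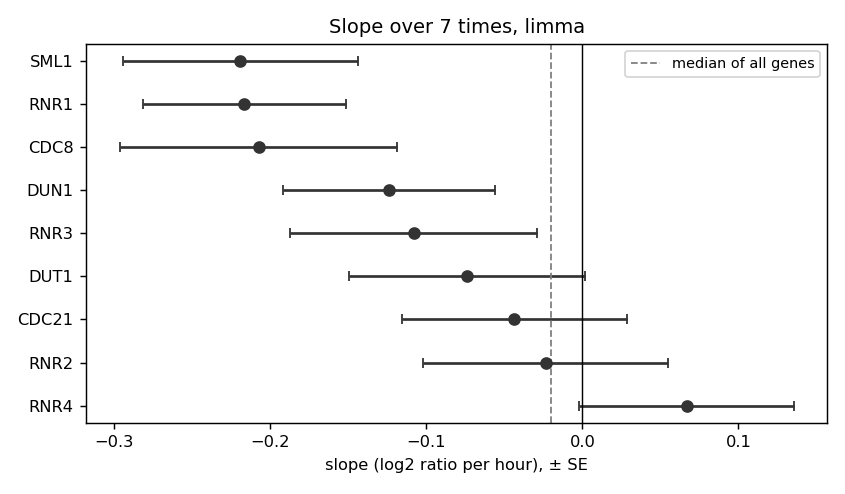
Slope of the log2 ratio per hour over 7 arrays for each of the 9 genes, with bars of 1 SE from limma, sorted with the lowest at the top. SML1, RNR1 and CDC8 have the lowest slopes (-0.22, -0.22 and -0.21) and RNR4 the only one above 0 (0.07); the dashed line is the median of all genes, -0.02.

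A line cannot describe a rise followed by a fall, so a curve with a linear and a quadratic term was fitted as well. None of the 9 genes passed, against 5.68% of all genes, and 2 had an unadjusted p under 0.05 (27.6% of all genes). The lowest adjusted p-values in limma were 0.108 for RNR1 and 0.111 for SML1, and the others lay between 0.225 and 0.830. The scatter around the curve lay between 0.24 for RNR1 and 0.58 for CDC8 on the log2 scale. Without the 8 h array CDC8 passed this test too, with an adjusted p of 0.0179 in limma, when 29.9% of all genes did, and over the alternatives its adjusted p lay between 0.0179 and 0.460. The number of arrays limits what these tests can show, and successive arrays of the same course share its history, so the p-values rank genes rather than measure replicate error.

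The likeness of the courses was described by Pearson's r over the 7 times, in which a shift at 0 h common to all columns drops out but errors of an array are shared by all genes. Of the 36 pairs, 24 had an r above 0 and 13 an r above 0.5, with a median of 0.32. RNR1 and SML1, the subunit and its inhibitor, had the highest r over all 7 arrays, 0.92. Without the 8 h array, where both are lowest, their r was 0.68, and that of RNR1 and CDC8 was the highest with 0.83. Without the 6 h array that of DUN1 and CDC21 was the highest, with 0.94. DUN1 followed CDC21 with 0.75, RNR1 with 0.74 and CDC8 with 0.71, and without 8 h these were 0.62, 0.50 and 0.82. RNR4 had the lowest values: its r was -0.75 with RNR1, -0.71 with RNR3, -0.61 with SML1 and -0.60 with DUT1. Without the 8 h array the r of RNR4 was -0.17 with RNR1 and 0.29 with SML1, but still -0.61 with RNR3 and -0.63 with DUT1. RNR2 and RNR4, whose proteins form the small subunit, had an r of 0.37, and 0.12 without 8 h.

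**Figure D4:**
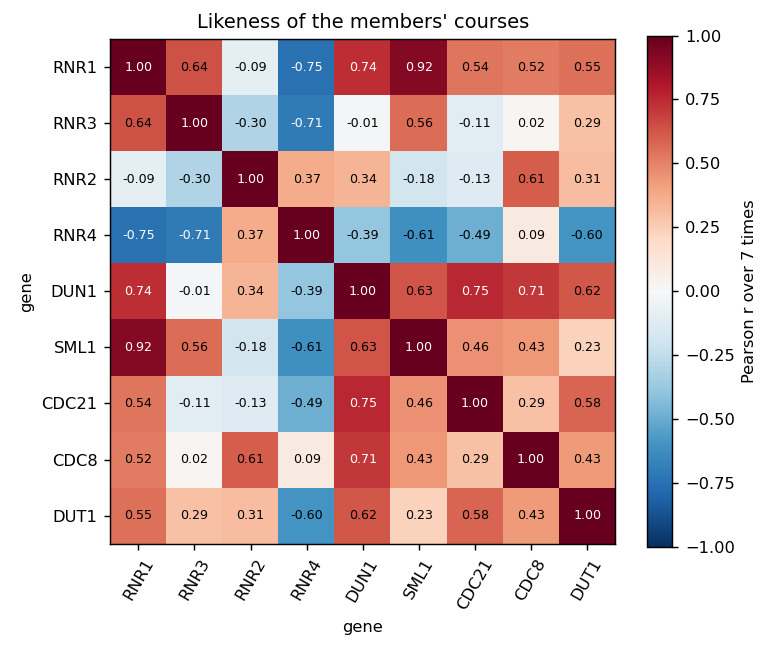
Pearson's r over 7 times between the courses of each pair of the 9 genes (rows and columns), from -1 in blue to 1 in red. RNR1 and SML1 have the highest r over all 7 arrays (0.92), and the row of RNR4 is blue against 6 of the other 8 genes, down to -0.75 with RNR1.

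Over the whole table, the named genes with the course most like that of each member were picked by the same r. For RNR1 these were CIT3 (0.98), DLD3 (0.97) and SEN34 (0.96), and 86 rows had an r over 0.9 with it. For RNR3 they were FCY21 (0.99), DDP1 (0.98) and RSF2 (0.96), for RNR2 BUR6 (0.95), PRX1 (0.95) and SPE2 (0.94), and for RNR4 EFT2 (0.97), MTC1 (0.96) and TDA10 (0.93). DUN1 was most like ABD1 (0.99), COX8 (0.97) and TML25 (0.97), and SML1 most like REC107 (0.99), PIK1 (0.95) and EUG1 (0.94). REC107, a gene for a protein of meiotic break formation, was at 1.17, 1.23 and 1.24 at 1, 2 and 4 h, and lowest at 8 h with -0.10. SML1 had its maximum of 0.43 at 4 h. CDC21 was most like MIR1 (0.95), RFC4 (0.95), which encodes a subunit of the clamp loader of DNA replication, and SKP1 (0.95). CDC8 was most like LMO1 (0.99), EAF7 (0.98) and RPA190 (0.98), with 120 rows over 0.9. DUT1 had only 2 rows over 0.9. It was most like HTB2 (0.92), a histone H2B gene, RFA3 (0.898), a subunit of the single-strand binding protein RPA, and RSM19 (0.897). With 7 points, high values of r are common in a table of this size. None of the neighbouring genes on the chromosome that were measured had an r over 0.9 with its member, the highest being 0.80 for GET3 beside DUN1.

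Genes of DNA synthesis and S-phase control were set beside the members. Of 15 S-phase genes, 14 had values at all times, and 0 passed the slope test in limma, against 2.06% of all genes, while 8 had an unadjusted p under 0.05, against 23.0%. The curve test was passed by 3, against 5.68% of all genes: RFA1 (adjusted p = 0.0349), and the S-phase cyclin genes CLB5 (adjusted p = 0.0482) and CLB6 (adjusted p = 0.0377). For the curve, 7 had an unadjusted p under 0.05, against 27.6% of all genes. The list median was 1.02, 1.11, 1.16, 0.96, 1.05, 0.86 and 0.04 at 1, 2, 3, 4, 5, 6 and 8 h. CLB6 (5.29) and CLB5 (4.18) were highest at 6 h, and CDC45 (-0.79) and POL1 (-0.75), an initiation factor and the catalytic subunit of DNA polymerase alpha, lowest at 8 h. At 2 h, where RNR1 was at 0.82, the replication clamp gene POL30 was at 2.84. Over all 7 arrays RNR1 had an r of 0.87 with the median course of this list, SML1 0.82 and DUN1 0.76. CDC21 had 0.58, DUT1 0.40, RNR3 0.38, CDC8 0.28, RNR2 -0.16 and RNR4 -0.74. The list median lay between 0.86 and 1.16 from 1 to 6 h and at 0.04 at 8 h. These r values therefore lean on the 8 h array, and they were not computed without it. In level, RNR1 was below the list median at every time, the difference lying between -1.11 at 5 h and -0.29 at 2 h, while CDC21 minus the list median stayed between -0.43 and 0.45. POL12, a further subunit of polymerase alpha, had a value at 6 h only.

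The regulators of the enzyme were measured for 9 of 11 genes. In limma none passed the slope or the curve test, and 1 and 2 had an unadjusted p under 0.05 (23.0% and 27.6% of all genes). RFX1, the repressor of RNR genes that Dun1 signalling removes, was at 0.89, 0.77, 0.47, 0.52, -0.30, 0.01 and -0.52 at 1, 2, 3, 4, 5, 6 and 8 h. Its slope of -0.21 ± 0.06 (SE) log2 per hour had an adjusted p of 0.0926 in limma. Among the RNR genes the slope was -0.22 for RNR1, -0.11 for RNR3, -0.02 for RNR2 and 0.07 for RNR4. A link between RFX1 and these genes was not tested. RAD53, the checkpoint kinase upstream of Dun1, reached 1.88 and 1.90 at 2 and 3 h and had its lowest value, 0.49, at 8 h. MEC1, the kinase above it, was between -0.75 at 3 h and 0.07 at 1 h. CYC8, part of the general corepressor that acts with Rfx1, was highest at 6 h with 2.43, and rests there on that array, with 0.76 at 5 h and 1.02 at 8 h. WTM1, which holds the small subunit in the nucleus, was lowest at 8 h with -1.39. DIF1, which brings the small subunit into the nucleus, was at 1.23 at 5 h and 1.68 at 6 h. RAD9 and HUG1 were not analysed here.

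Of the factors of the G1 to S transition, 5 of 5 were measured. In limma none passed either test, and 2 had an unadjusted p under 0.05 for the slope and 0 for the curve (23.0% and 27.6% of all genes). NRM1, a corepressor of MBF, was highest at 6 h with 1.71, which rests on that array, with 0.66 at 5 h and 0.36 at 8 h. SWI4, the DNA-binding subunit of the related factor SBF, lay at 1.48, 1.49 and 1.45 at 2, 3 and 4 h. MBP1, the DNA-binding subunit of MBF, was lowest at 3 h with -0.85 and at 1.19 at 5 h. SWI6, shared by both factors, lay between -0.71 at 8 h and 0.59 at 6 h.

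Further enzymes on the route to dNTPs lay mostly below 0 h. Of 10 genes, 8 were measured at all times. In limma none passed either test, and 3 had an unadjusted p under 0.05 for the slope and 3 for the curve (23.0% and 27.6% of all genes). The list median was highest at 2 h (-0.12) and lowest at 8 h (-0.83). ADK1, the main adenylate kinase, was at least 2-fold below 0 h at every time, with its minimum of -2.05 at 5 h. SHM2, a serine hydroxymethyltransferase that feeds the folate cycle of thymidylate synthesis, was lowest at 5 h with -2.75, and lay at -0.66 at 6 h. DFR1, dihydrofolate reductase, which restores the folate that thymidylate synthase uses up, was at 0.08 at 2 h and -1.29 at 6 h, where CDC21 was at 1.17. GUK1, guanylate kinase, was highest at 5 h with 0.88, and URA7, a CTP synthase, at 8 h with 0.78. YNK1, the nucleoside diphosphate kinase that makes the final triphosphates, was at 0.65 at 2 h and -1.87 at 8 h. Its adjusted p-values in limma were 0.0728 for the slope and 0.0583 for the curve. URA8 had a value at 6 h only and HAM1 was not analysed here.

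Reductants and the iron supply of the enzyme were measured at all times for 5 of 7 genes. In limma none passed either test, and 1 had an unadjusted p under 0.05 for the slope and 1 for the curve (23.0% and 27.6% of all genes). At 5 h these 5 were at least 2-fold below 0 h, when 17.4% of all genes were, and their median was -1.58. That was the time with the highest count. At 1, 2, 3, 4, 6 and 8 h the counts were 2, 2, 0, 2, 3 and 1 (9.44%, 9.35%, 8.43%, 10.7%, 19.5% and 10.8% of all genes). GRX4, left out of these counts for want of a 6 h value, went the other way at 5 h with 0.34. TRX1, a thioredoxin that reduces ribonucleotide reductase, was at 0.63 at 1 h and -1.68 at 5 h, with an adjusted p of 0.0556 in limma for the curve. TRR1, thioredoxin reductase, was lowest at 6 h with -2.62, and at -2.06 at 5 h. DRE2, which takes part in building iron cofactors, was highest at 3 h with -0.01 and lowest at 6 h with -1.91. TRX2 had a value at 6 h only, and GRX4 at every time but 6 h.

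Genes that DNA damage induces in mitotic cells form the setting for RNR3. Of 10 genes, all were measured. In limma 0 passed the slope test, where 1 had an unadjusted p under 0.05 (23.0% of all genes), and for the curve 3 did (27.6%). The curve test was passed by 1 (5.68% of all genes), DDR48, a stress protein gene, at -1.86 at 5 h and 0.66 at 8 h (limma adjusted p = 0.0461). The list median was highest at 1 h (0.24) and lowest at 6 h (-0.45). DIN7, a mitochondrial nuclease gene, was highest at 5 h with 2.54, and UBI4, polyubiquitin, was lowest at 1 h with -1.60. At 1 h, where RNR3 was highest with 0.95, the list median was 0.24, and at 3 h, where RNR3 was lowest with -0.39, it was 0.18.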

How the data were processed

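Transcripts were measured on 2-colour arrays, in which Cy5 marked a time point's mRNA and Cy3 a pool over all times, per the labels' protocols. The deposited values are log2 ratios, which the authors divided by the ratio at 0 h, per the series' design text. That text states 2 independent cultures, but each time has 1 column, so each time was used as 1 sample. The sources used here do not give scanner, background correction, normalization or spot filters. Signal over background is unknown, and the number of arrays limits the precision.

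Genes were named through locus tags of the RefSeq R64 table, which 5655 of 6141 rows matched, and no coordinates or sequences are given. A line and a quadratic curve in hours were fitted to the 5585 complete rows with limma 3.58.1 in R 4.3.3 (lmFit, eBayes), with 5 and 4 residual degrees of freedom, and Benjamini-Hochberg adjustment over all 5585. Python 3.11.15 with numpy 2.4.6, pandas 2.3.3 and matplotlib 3.10.9 served for descriptions and plots. A call by fold needs a log2 ratio of at least 1 or at most -1.

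The members and lists were chosen with earlier results of these data known. The text names all 9 members, in each list the genes past a test and up to 2 with the highest maximum and 2 with the lowest minimum, and for each member the 3 named genes with the highest r; neighbouring genes were to be named where r was over 0.9. RFX1, DIF1, YNK1, DFR1, POL30 and the neighbour GET3 were described in addition and chosen after their values were seen. One gene that the rule names is not reported here. The planned search for promoter motifs was not run, since no sequences were used here. Alternatives were quantile normalization, median centring, rows with 5 or more values, robust moderation, the rank of the time, each time left out, and 1.5-fold.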

Additional observations from a re-analysis of the deposited data

How the results depend on the processing

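Of the 108 slopes recomputed for single genes, 102 kept their direction and their side of the threshold. Reversed slopes, all far from the threshold, were those of RNR2 after quantile normalization (0.028) and without 2 h or 6 h, of RNR4 without 8 h and of CDC21 without 8 h. With each time left out in turn, the slope of RNR2 lay between -0.136 and 0.026, that of RNR4 between -0.023 and 0.101 and that of CDC21 between -0.120 and 0.029 log2 per hour. Members past the slope test and past the curve test numbered 0 to 1 when each time was left out in turn, and 0 under the other alternatives; the 1 was CDC8 without 8 h. Over all genes, the slope test called 0 to 868 genes when each time was left out, 430 after quantile normalization, 71 after centring and 367 with the rank of the time, against 115 with the values as deposited. The curve test called 1 to 1668, 661 after quantile normalization and 254 after centring, against 317. The median of all genes at 6 h was -0.15, and centring moved the members' medians by at most 0.15.

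With quantile normalization, the members at least 2-fold above 0 h numbered 1, 3, 2 and 0 for 1, 2, 3 and 6 h, and those below 1 each for 1, 2 and 6 h. With centring, those below numbered 1 each for 1 and 6 h. At 1.5-fold, 3, 6, 3, 1 and 2 members were above 0 h at 1, 2, 3, 5 and 6 h. Below 0 h were 2, 1, 1, 1, 3, 3 and 2 at 1, 2, 3, 4, 5, 6 and 8 h. Counts at times not listed were those of the deposited values at 2-fold. The share of all genes past the same cut was not computed under these settings, nor for the comparison that follows. Members at least 2-fold lower at 8 h than at 2 h, a comparison chosen after seeing the data, numbered 2 with 6 h or with 5 h in place of 8 h, and 3 with 1 h or with 3 h in place of 2 h, 7 after quantile normalization and 4 after centring. The cause of these differences was not tested. No paired analysis was possible because each time has 1 array and the labels give no replicate numbers.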
